A study of Homo sapiens with 16 samples.

Results

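The aryl hydrocarbon receptor pathway was read here through 8 genes, AHR, ARNT, AHRR, CYP1A1, CYP1B1, TIPARP, NQO1 and ALDH3A1, chosen by name. A probe set, a group of short probes that reads 1 transcript, was taken where the platform's annotation gave it a member as its only symbol, which gave 19 of the 54675 probe sets. They stand among 19775 genes that have a probe set of their own. ARNT had 7 probe sets, CYP1B1 had 4, NQO1 had 3 and the other genes had 1 each. Where a gene had several, the probe set with the highest mean signal over the 16 arrays represented it.

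The arrays carried RNA of HCT116 and RKO, both human colon cancer cell lines, treated for 3 days. In each line there was 1 array for each of 8 conditions: the control, for which the labels name no drug, each of PJ-34, TSA and 5-aza-dC alone, the 3 pairs of them (PJ-34/TSA, PJ-34/5-aza-dC and 5-aza-dC/TSA) and all 3 together. PJ-34 inhibits poly(ADP-ribose) polymerases, 5-aza-dC inhibits DNA methyltransferases and TSA inhibits histone deacetylases. HCT116 cells received 3 µM PJ-34, and for RKO the study names both 2 µM and 3 µM. Both lines received 150 nM TSA and 0.5 µM 5-aza-dC. RKO was grown in Dulbecco's medium, and the methods name McCoy's or Dulbecco's medium for HCT116, so medium and line cannot be told apart in comparisons of the lines. No condition had a replicate, so each drug effect compared the 4 arrays of a line with the drug with the 4 without it, and the number of arrays limits the precision. Whether the cultures of a line were grown side by side is not given in the sources used here.

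The aryl hydrocarbon receptor is a transcription factor that waits in the cytoplasm, bound to chaperones, until a small planar molecule such as a dioxin, a polycyclic hydrocarbon or a tryptophan metabolite binds it. It then enters the nucleus, pairs with ARNT and binds the xenobiotic response element, whose core is GCGTG, beside genes of drug metabolism. AHRR and TIPARP are targets that restrain the receptor in return, and in the colon the pathway is known for its part in the response of the epithelium to diet and microbial products.

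Promoter sequences of the pathway are shown because the receptor acts through the core GCGTG and because 5-aza-dC acts on methylated CG. RefSeq (build GRCh38.p14) held windows for 6 of the 8 genes, AHR, ARNT, AHRR, CYP1A1, TIPARP and NQO1, 9 windows in all, of which the 250 bases before the start were searched on both strands (GCGTG and its reverse, CACGC). The core was in 4 of the 9 windows and in 3 of the 6 genes, CYP1A1, AHRR and TIPARP, against 32.2% of 35116 such windows and 36.2% of 27305 genes in the whole table. A match describes these letters and is not evidence of binding. In CYP1A1, chr15:74725529-74725778 on the minus strand, the core (capitals) began 57 bases before the start. In the first AHRR window, chr5:321464-321713 on the plus strand, it began 30 bases before the start. In the first TIPARP window, chr3:156674340-156674589 on the plus strand, the reverse core began 208 and 142 bases before the start.
CYP1A1: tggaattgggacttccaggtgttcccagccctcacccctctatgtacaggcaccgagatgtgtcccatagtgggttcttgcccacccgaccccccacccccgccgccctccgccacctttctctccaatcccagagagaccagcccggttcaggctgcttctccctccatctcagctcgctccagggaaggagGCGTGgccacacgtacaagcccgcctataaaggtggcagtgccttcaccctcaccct
AHRR: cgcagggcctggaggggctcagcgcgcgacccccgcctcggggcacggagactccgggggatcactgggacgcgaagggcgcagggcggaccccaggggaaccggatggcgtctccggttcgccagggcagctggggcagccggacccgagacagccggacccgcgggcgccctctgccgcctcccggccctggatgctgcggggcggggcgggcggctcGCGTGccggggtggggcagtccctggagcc
TIPARP: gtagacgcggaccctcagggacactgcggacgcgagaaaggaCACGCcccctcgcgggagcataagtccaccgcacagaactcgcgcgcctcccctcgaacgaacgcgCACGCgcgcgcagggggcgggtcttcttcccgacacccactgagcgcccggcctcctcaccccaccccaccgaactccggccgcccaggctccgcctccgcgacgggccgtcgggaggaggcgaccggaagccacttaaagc
The AHR window, chr7:17298402-17298651 on the plus strand, held no core and 24 CG (capitals), against a median of 11 over all windows. As many CG or fewer were found in 78.4% of them.
AHR: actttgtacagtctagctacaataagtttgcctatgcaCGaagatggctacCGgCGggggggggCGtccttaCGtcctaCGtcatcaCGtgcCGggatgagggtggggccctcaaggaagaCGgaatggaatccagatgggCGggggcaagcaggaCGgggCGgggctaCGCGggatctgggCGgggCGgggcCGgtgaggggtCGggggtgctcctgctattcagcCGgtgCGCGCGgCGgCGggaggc
The 10 CG of the CYP1A1 window and the 9 of the NQO1 window were near that median. The first AHRR window had 31 and the first TIPARP window 35.

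All values below are signal intensities, or log2 differences between them, of probe sets. A signal depends on the probe as well as on the RNA, so no gene's level was set against another's. All arrays had been scaled to the same trimmed mean, their medians were 160 to 210 in HCT116 and 152 to 202 in RKO, and 21.9% to 27.3% of probe sets read under 50. In RKO, 1 array labelled PJ-34/5-aza-dC and 1 labelled PJ-34 went against their labels for 5-aza-dC and are called the disputed arrays. Of 48 probe sets that were at least 5-fold higher with 5-aza-dC in both comparisons among the other RKO arrays, 0 reached 5-fold over the control under the PJ-34/5-aza-dC label and 44 did so under the PJ-34 label. This check reads 5-aza-dC alone. Both labels name PJ-34 and neither names TSA, and those parts of the labels were not checked. The labels were kept, and the RKO effects described below are given with and without the disputed arrays. For PJ-34 and TSA, leaving them out also leaves fewer arrays to compare. Of 9 colon epithelium markers, 9 reached a median signal of 100 in HCT116 and 7 in RKO, where CDH1 and KRT19 did not. Among markers of other cells, 2 and 1 of 5 hepatocyte genes, 3 and 1 of 6 fibroblast genes and 2 and 3 of 5 blood genes did so in HCT116 and RKO. Fewer cells that express a gene and less of its RNA per cell cannot be told apart in such bulk RNA.

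A floor of 50 was put under the signals before log2 was taken, and a probe set was tested where 4 or more arrays reached 100. This filter left all 8 genes in HCT116, with 17 of their 19 probe sets, and only ARNT, AHRR, TIPARP and NQO1 in RKO, with 11 probe sets. AHR, CYP1A1, CYP1B1 and ALDH3A1 were too dim in RKO to be tested within that line. No gene's representing probe set passed limma's test (adjusted p under 0.05 over all probe sets) in any of the 6 drug effects. The smallest adjusted p of a member gene was 0.981 for PJ-34, 0.247 for 5-aza-dC and 0.0544 for TSA in HCT116, and 1, 0.882 and 0.177 for the same drugs in RKO. Without the disputed arrays the RKO values were 0.901, 0.0096 (ARNT) and 0.379. In the whole table PJ-34 passed 0 of 35373 probe sets in HCT116 (0%), 5-aza-dC passed 263 (0.744%) and TSA 3180 (8.99%). In RKO the test passed 0 of 33862 probe sets for PJ-34 (0%), 0 for 5-aza-dC (0%) and 2 for TSA (0.00591%), and without the disputed arrays 0, 610 and 5. At an unadjusted p under 0.05 limma had 1323 for PJ-34 in HCT116, 895 for PJ-34 and 1759 for 5-aza-dC in RKO.

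**Figure D1:**
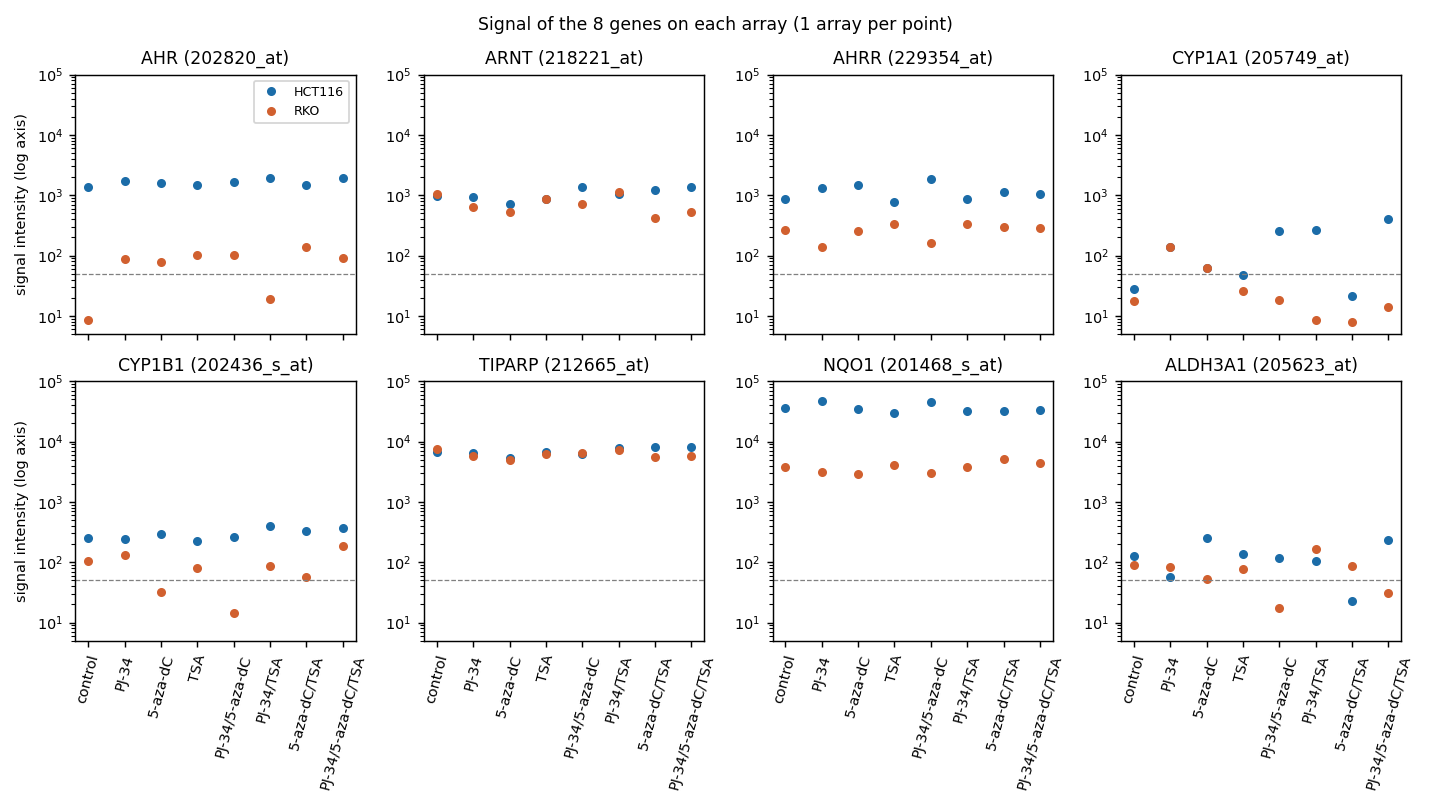
Signal intensity (log axis) of the representing probe set of each of the 8 genes, with 1 point per array, HCT116 in blue and RKO in orange, and the conditions along the x axis. The dashed line marks the floor of 50. AHR, AHRR, CYP1B1 and NQO1 were higher in all 8 HCT116 arrays than in all 8 RKO arrays, and CYP1A1 was highest in the 4 HCT116 arrays with PJ-34.

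The receptor gene AHR was bright in HCT116 and near the floor in RKO. Its signal in HCT116 was 1371 in the control, 1754 with PJ-34, 1606 with 5-aza-dC, 1497 with TSA, 1645 with PJ-34/5-aza-dC, 1935 with PJ-34/TSA, 1484 with 5-aza-dC/TSA and 1898 with all 3 drugs. The 4 arrays with PJ-34 (1645 to 1935) were all above the 4 without it (1371 to 1606), but by little. The 4 ratios of arrays that differed in PJ-34 alone were 1.02 to 1.29, and the PJ-34 effect was 0.28 on the log2 scale (SE 0.14, limma adjusted p = 0.981). Of all probe sets tested in HCT116, 0.667% had their 4 PJ-34 arrays above the 4 others. For 5-aza-dC and for TSA the AHR effect was 0.02 and 0.09 (95% interval -0.27 to 0.32 and -0.21 to 0.39). In RKO, AHR read 8.5 in the control, 88.7 under the PJ-34 label, 77.4 with 5-aza-dC, 104 with TSA, 101 under the PJ-34/5-aza-dC label, 18.9 with PJ-34/TSA, 139 with 5-aza-dC/TSA and 89.9 with all 3 drugs. The RKO control and the PJ-34/TSA array were the lowest and the 5-aza-dC/TSA array the highest, all in a range where signals are unsteady.

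ARNT, the partner that the receptor shares with the hypoxia factors, was read by probe sets that did not move together. In RKO its brightest one, 218221_at, read 1050 in the control, 646 under the PJ-34 label, 522 with 5-aza-dC, 872 with TSA, 726 under the PJ-34/5-aza-dC label, 1150 with PJ-34/TSA, 427 with 5-aza-dC/TSA and 519 with all 3 drugs. The 3 undisputed arrays with 5-aza-dC were the lowest of the 8, and these and the disputed ones were all below the other 3. The 5-aza-dC effect was -0.75 (SE 0.23, adjusted p = 0.882) with all arrays and -1.06 (SE 0.19, adjusted p = 0.0096) without the disputed arrays, so that the call rested on leaving them out. Leaving out the array under the PJ-34 label alone was enough (-1.04, adjusted p = 0.0402). Without them the other ARNT probe sets that passed the filter in RKO had effects of -0.46 (218222_x_at), -0.35 (210828_s_at), -0.08 (231016_s_at) and -0.04 (230619_at), none of them past the test. In HCT116 the 5-aza-dC effect on 218221_at was 0.25 (SE 0.19, adjusted p = 0.686). The difference of this effect between the lines, HCT116 minus RKO, was 1.01 (SE 0.32, adjusted p = 0.502) with all arrays, and 1.31 (SE 0.28, adjusted p = 0.0891) without the disputed ones.

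A dim ARNT probe set, 233724_at, went the other way in RKO. It read 162, 127, 138 and 173 in the 4 arrays labelled with 5-aza-dC (alone, with PJ-34, with TSA and with both) and 14.9 to 20.4 in the 4 others. The low values are under the floor of 50, so the size of the difference is not known, and against the floor the 4 ratios were at least 2.53 to 3.45. Of all RKO probe sets 1.59% had their 4 arrays with 5-aza-dC all above the others. This probe set passed the filter only through these 4 high arrays, so it entered the test only because it was high there. Its effect of 1.57 (SE 0.48) had a limma adjusted p of 0.882 and is a description. The probe set did not pass the filter without the disputed arrays. Here the disputed arrays fell on the side that their labels give, unlike most of the 48 probe sets above. In HCT116 233724_at ranged from 11.2 to 153 with no such split, with an effect of 0.01 (95% interval -1.24 to 1.27). Another ARNT probe set, 230619_at, was lower with TSA in HCT116: the 4 arrays with TSA read 609 to 792 and the 4 without it 985 to 1160, for an effect of -0.59 (SE 0.18, adjusted p = 0.0512). In HCT116 6.95% of all probe sets had their 4 TSA arrays below the 4 others. The representing ARNT probe set had an effect of 0.18 in the same comparison (95% interval -0.23 to 0.59), so the ARNT probe sets disagreed for both drugs.

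AHRR encodes the repressor that competes with the receptor for ARNT. In HCT116 its signal was 863 in the control, 1308 with PJ-34, 1481 with 5-aza-dC, 773 with TSA, 1850 with PJ-34/5-aza-dC, 871 with PJ-34/TSA, 1136 with 5-aza-dC/TSA and 1042 with all 3 drugs. The arrays with 5-aza-dC or PJ-34 and no TSA were the highest, and TSA alone the lowest. The 5-aza-dC effect was 0.52 (SE 0.17, limma adjusted p = 0.247) and the TSA effect -0.49 (SE 0.17, adjusted p = 0.0897). The difference between these drugs passed the test: the TSA effect minus the 5-aza-dC effect was -1.01 (SE 0.24, adjusted p = 0.0459), a comparison in which 2.06% of probe sets passed. That call was lost in 7 of 8 fits that left out 1 HCT116 array, all but the one without the TSA array, with adjusted p from 0.0436 to 0.316.

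In RKO, AHRR read 270 in the control, 138 under the PJ-34 label, 252 with 5-aza-dC, 330 with TSA, 160 under the PJ-34/5-aza-dC label, 329 with PJ-34/TSA, 298 with 5-aza-dC/TSA and 283 with all 3 drugs. The lowest values were those of the disputed arrays. The PJ-34 effect was -0.43 (SE 0.30, adjusted p = 1) with all arrays and -0.04 (SE 0.38, adjusted p = 0.994) without them. All 4 TSA arrays were above the 4 others, as were those of 2.95% of RKO probe sets. The TSA effect was 0.65 (SE 0.30, adjusted p = 0.40) with all arrays and 0.27 (SE 0.38, adjusted p = 0.899) without the disputed ones. Between the lines the TSA effect on AHRR, HCT116 minus RKO, was -1.14 (SE 0.31, adjusted p = 0.116) and -0.76 (SE 0.33, adjusted p = 0.491) without the disputed arrays.

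TIPARP, also called PARP7, is a mono-ADP-ribosyltransferase that is induced by the receptor and inactivates it. It was bright in both lines. In HCT116 it read 6638 in the control, 6529 with PJ-34, 5394 with 5-aza-dC, 6781 with TSA, 6220 with PJ-34/5-aza-dC, 7920 with PJ-34/TSA, 8281 with 5-aza-dC/TSA and 8274 with all 3 drugs. The 4 arrays with TSA (6781 to 8281) were all above the 4 without it (5394 to 6638), as in 6.26% of HCT116 probe sets. The TSA effect was 0.33 (SE 0.11, adjusted p = 0.0764), and without the TSA array it was 0.41 (SE 0.10, adjusted p = 0.0227). For PJ-34 the effect was 0.10 in HCT116 (95% interval -0.14 to 0.34) and 0.08 in RKO (-0.17 to 0.32). In RKO its signals ran from 4963 to 7477, highest in the control, and the TSA effect was 0.00 (-0.24 to 0.24). Without the disputed arrays these RKO effects were 0.13 for PJ-34 (SE 0.11, adjusted p = 0.937) and -0.05 for TSA (SE 0.11, adjusted p = 0.942). The 5-aza-dC effect in RKO was -0.24 (SE 0.11, adjusted p = 0.882) with all arrays and -0.38 (SE 0.09, adjusted p = 0.0552) without the disputed ones.

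CYP1A1, the cytochrome P450 that serves as the classic marker of an active receptor, had the largest change of the 8 representing probe sets in the drug comparisons. In HCT116 its signal was 27.8 in the control, 138 with PJ-34, 61.4 with 5-aza-dC, 47.5 with TSA, 257 with PJ-34/5-aza-dC, 263 with PJ-34/TSA, 21.2 with 5-aza-dC/TSA and 405 with all 3 drugs. The 4 arrays with PJ-34 (138 to 405, mean 266) were all above the 4 without it (21.2 to 61.4, mean 39.5). Of the 4 arrays without PJ-34, 3 were under the floor of 50, so that ratios to them are bounds. The signal with PJ-34 was at least 2.76 times that without it when no other drug was given, at least 5.26 times with TSA, 4.18 times with 5-aza-dC and at least 8.09 times with both. On the log2 scale with the floor of 50 the PJ-34 effect was 2.24 (SE 0.46, 95% interval 1.24 to 3.23). It ranked 3 by p and 2 by size among the 35373 probe sets, and limma's adjusted p was 0.981. The filter needed 4 arrays at 100 or more, and these were exactly the 4 with PJ-34, so CYP1A1 entered the test only because it was high there. The effect remained between 1.31 and 2.78 with floors of 100 and 20.

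In RKO the same split was not seen. CYP1A1 read 17.9 in the control, 137 under the PJ-34 label, 61.8 with 5-aza-dC, 25.9 with TSA, 18.3 under the PJ-34/5-aza-dC label, 8.6 with PJ-34/TSA, 7.8 with 5-aza-dC/TSA and 14.0 with all 3 drugs. Only the disputed array under the PJ-34 label was above 100. The undisputed RKO arrays with PJ-34 were both under 20. The difference of the PJ-34 effect between the lines, HCT116 minus RKO, was 1.95 (SE 0.59, adjusted p = 1) with all arrays and 2.24 (SE 0.72, adjusted p = 1) without the disputed ones. No probe set of 42119 passed that comparison (0%), and 1480 had an unadjusted p under 0.05. Over both lines CYP1A1 reached 100 only in the 4 HCT116 arrays with PJ-34 and the disputed array under the PJ-34 label. It entered the fit of both lines only through these arrays, so the differences between the lines are a description.

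**Figure D2:**
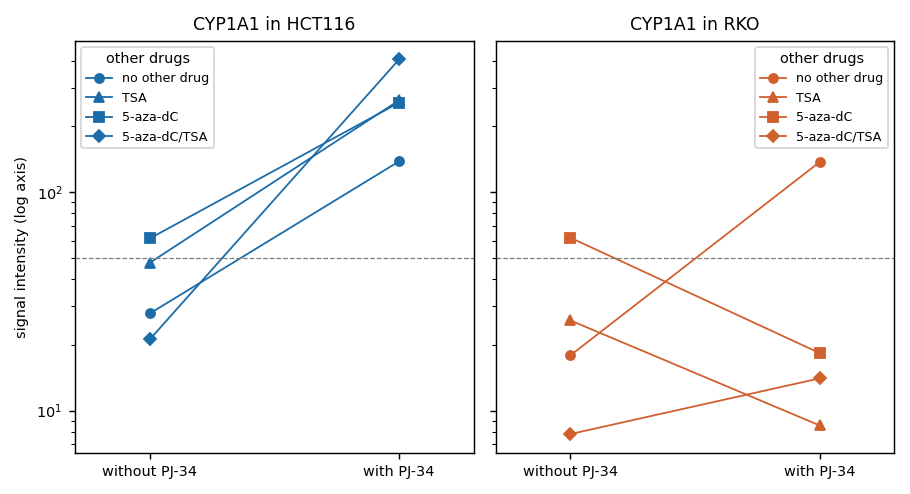
CYP1A1 signal (log axis) without and with PJ-34 in HCT116 (left) and RKO (right). Each line joins 2 arrays that differ in PJ-34 alone, the marker gives the other drugs, and the dashed line is the floor of 50. All 4 HCT116 lines go up, 3 of them from under the floor, while in RKO only the disputed array under the PJ-34 label reaches 100.

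The same filter bears on the comparison of the drugs, since CYP1A1 entered it only through the PJ-34 arrays, and the differences below are a description. No difference between drugs passed the test for CYP1A1. The 5-aza-dC effect was 0.45 (SE 0.46) and the TSA effect 0.32 (SE 0.46). The 5-aza-dC effect minus the PJ-34 effect was -1.78 (SE 0.65, 95% interval -3.19 to -0.38, adjusted p = 0.759), and the TSA effect minus the PJ-34 effect was -1.91 (SE 0.65, -3.32 to -0.51, adjusted p = 0.237). In these comparisons 0.235% and 0.481% of probe sets passed. TSA and 5-aza-dC differed by -0.13 (-1.53 to 1.27). The interactions over both lines, which ask whether 2 drugs together differ from the sum of their effects, were -0.14 (-1.51 to 1.24) for PJ-34 by 5-aza-dC, 0.18 (-1.19 to 1.55) for PJ-34 by TSA and 0.15 (-1.23 to 1.52) for 5-aza-dC by TSA. Each interaction was 1 value shared by the lines and was fitted with the disputed arrays, while 6 of 8 RKO signals of CYP1A1 were under the floor. These values thus do not tell whether the drug effects on CYP1A1 add up in HCT116. No probe set of any gene passed limma in any of the 3 interactions (0%), where 2872, 1307 and 1887 of 42119 had an unadjusted p under 0.05.

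CYP1B1, a second P450 target that acts on oestrogens and polycyclic hydrocarbons, was less regular. Its representing probe set, 202436_s_at, read 224 to 401 in HCT116, lowest with TSA and highest with PJ-34/TSA, and the effects of the drugs were 0.20 for PJ-34, 0.17 for 5-aza-dC and 0.29 for TSA (SE 0.30 each). A dimmer CYP1B1 probe set, 202435_s_at, read 203 in the control, 178 with PJ-34, 170 with TSA and 253 with PJ-34/TSA, but 131 with 5-aza-dC, 19.4 with PJ-34/5-aza-dC, 78.6 with 5-aza-dC/TSA and 110 with all 3 drugs. All 4 arrays with 5-aza-dC were below the 4 others, as in 1.69% of HCT116 probe sets, with an effect of -1.20 (SE 0.46, adjusted p = 0.354). The representing probe set and 202437_s_at (0.43, SE 0.41) did not share that direction. In RKO 202436_s_at ran from 14.2 to 187 without order by drug.

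NQO1 encodes a quinone reductase that both the receptor and NRF2 drive. In HCT116 its brightest probe set, 201468_s_at, read 35642 in the control, 46221 with PJ-34, 34647 with 5-aza-dC, 30139 with TSA, 44845 with PJ-34/5-aza-dC, 32325 with PJ-34/TSA, 32636 with 5-aza-dC/TSA and 33905 with all 3 drugs. The 4 arrays with TSA were the lowest, as in 6.95% of HCT116 probe sets, and the arrays with PJ-34 and no TSA were the highest. NQO1 fell with TSA on the other probe sets: by 0.49 (SE 0.12, adjusted p = 0.0202) on 201467_s_at, whose range over the 8 arrays was 3843 to 10311, and by 0.31 (SE 0.09, adjusted p = 0.0467) on 210519_s_at. On 201468_s_at the effect was -0.31 (SE 0.09, adjusted p = 0.0544). For TSA in HCT116, 2 of 17 member probe sets passed against 8.99% of all, too few to set apart from that share. When 1 array was left out, the call for 201467_s_at held only without TSA, without PJ-34/5-aza-dC or without 5-aza-dC/TSA and was lost in the other 5 of 8 fits (-0.60 to -0.38). For 210519_s_at it held only without TSA and was lost in 7 of 8 (-0.37 to -0.26). Both TSA calls were also lost with no filter on signal (adjusted p = 0.142 and 0.112) and without the variance trend (0.189 and 0.264).

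PJ-34 and 5-aza-dC went the other way on 201467_s_at, with effects of 0.43 (SE 0.12, adjusted p = 0.981) and 0.53 (SE 0.12, adjusted p = 0.0598). The differences between drugs passed the test there, in comparisons that 2.06% (TSA minus 5-aza-dC) and 0.481% (TSA minus PJ-34) of probe sets passed. The TSA effect minus the 5-aza-dC effect was -1.03 (SE 0.17, adjusted p = 0.00578), lost in 2 of 8 fits that left out an array (5-aza-dC or PJ-34/TSA), with no filter on signal (adjusted p = 0.141) and without the variance trend (0.197). The TSA effect minus the PJ-34 effect was -0.92 (SE 0.17, adjusted p = 0.0315), lost in 7 of 8, all but the one without PJ-34/5-aza-dC, with no filter (0.255) and without the trend (0.39). For 201468_s_at these differences were -0.34 (SE 0.13, adjusted p = 0.243) and -0.54 (SE 0.13, adjusted p = 0.102).

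In RKO, NQO1 201468_s_at read 3780 in the control, 3172 under the PJ-34 label, 2880 with 5-aza-dC, 4156 with TSA, 2974 under the PJ-34/5-aza-dC label, 3760 with PJ-34/TSA, 5197 with 5-aza-dC/TSA and 4397 with all 3 drugs. Here the arrays with TSA were the higher ones apart from PJ-34/TSA, which lay just under the control. Each of the 4 was above its counterpart without TSA, whereas on either of the other NQO1 probe sets this held for 1 of 4. The TSA effect was 0.45 (SE 0.12, adjusted p = 0.177), and 0.49 (SE 0.15, adjusted p = 0.379) without the disputed arrays. On 201467_s_at and 210519_s_at it was -0.07 and -0.05 (95% intervals -0.39 to 0.25 and -0.27 to 0.17), and -0.06 and -0.08 without the disputed arrays. The TSA effect on 201468_s_at differed between the lines by -0.76 (HCT116 minus RKO, SE 0.15, adjusted p = 0.0373), in a comparison that 0.401% of probe sets passed. The call was lost without the disputed arrays (-0.81, SE 0.19, adjusted p = 0.134). The other NQO1 probe sets gave -0.42 (adjusted p = 0.387) and -0.26 (adjusted p = 0.449).

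**Figure D3:**
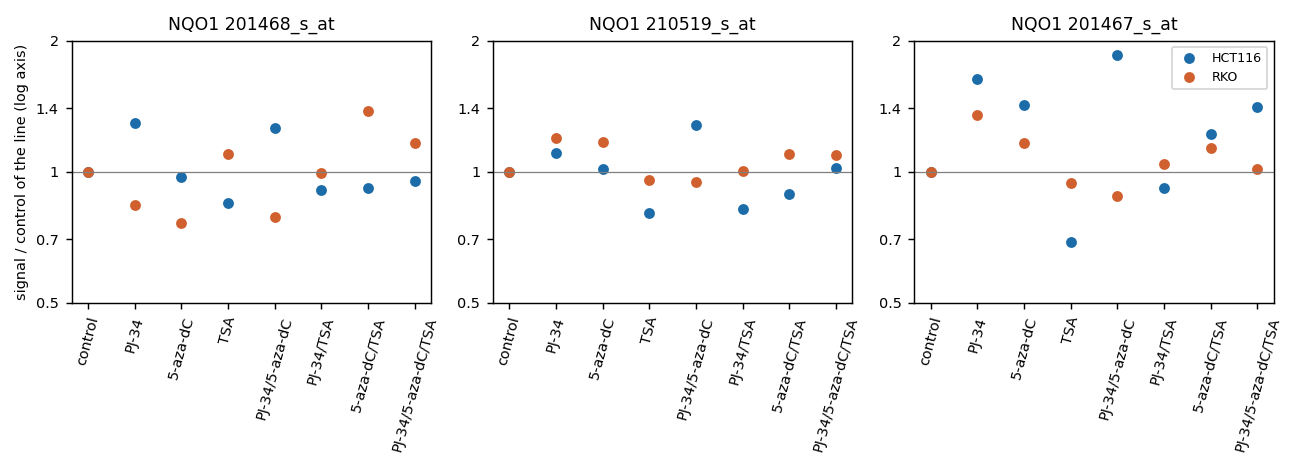
Signal of the 3 NQO1 probe sets on each array divided by the control array of the same line (log axis), with the conditions along the x axis, HCT116 in blue and RKO in orange. On all 3 probe sets each HCT116 array with TSA lies below its counterpart without TSA, while in RKO each lies above it on 201468_s_at and 1 of 4 does so on either of the others.

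ALDH3A1, an aldehyde dehydrogenase induced by the receptor in liver and carcinoma cells, was dim. It read 22.4 to 248 in HCT116, lowest with 5-aza-dC/TSA and highest with 5-aza-dC, and 17.6 to 167 in RKO. Its effects in HCT116 were -0.09 for PJ-34, 0.43 for 5-aza-dC and -0.08 for TSA with an SE of 0.59, so rises of up to 1.17, 1.69 and 1.18 lay inside the 95% intervals. For PJ-34 and TSA the intervals reached further on the side of a fall than on that of a rise. Such changes were not detectable at this signal.

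**Figure D4:**
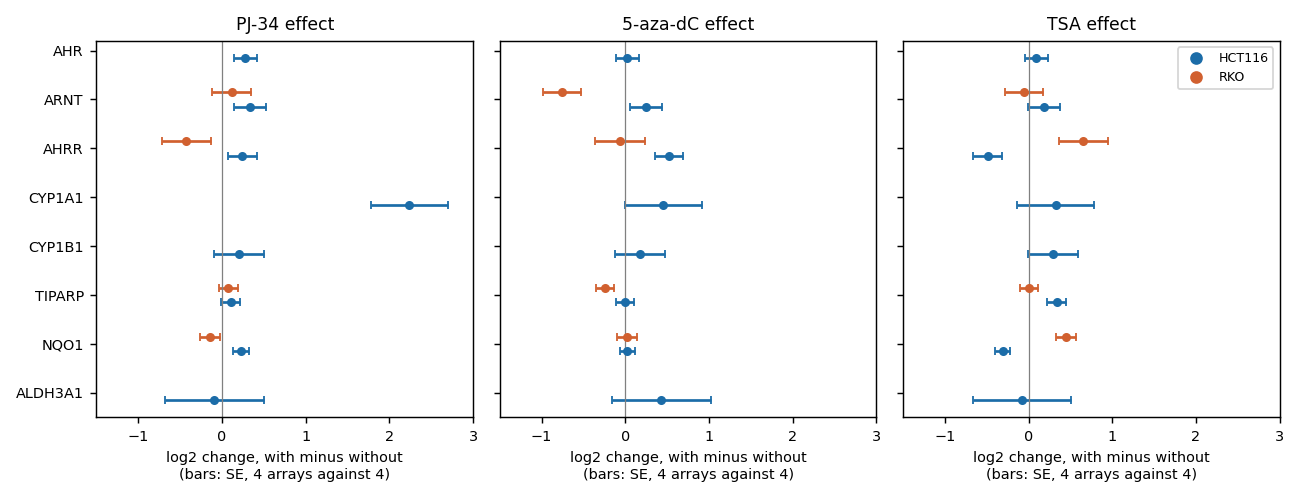
Effect of each drug on the representing probe set of each gene, as the log2 change between the 4 arrays of a line with the drug and the 4 without it, with bars of 1 SE, HCT116 in blue and RKO in orange. Genes without an RKO point did not pass the filter on signal there. CYP1A1 with PJ-34 in HCT116 lies at 2.24, and all other points lie between -0.75 and 0.65.

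Between drugs within RKO, no member gene passed the test in any of the 3 comparisons, nor did any other probe set (0%). Without the disputed arrays 45, 0 and 73 probe sets passed for 5-aza-dC minus PJ-34, TSA minus PJ-34 and TSA minus 5-aza-dC, none of them representing a member, whose smallest adjusted p was 0.13 (ARNT), 0.997 and 0.366. With all arrays limma's unadjusted p was under 0.05 for 877, 1729 and 2502 of 33862 probe sets in the same order. The 5-aza-dC effect differed between the lines for 0.0309% of probe sets and for none of the 8 genes, whose smallest adjusted p was 0.502 (ARNT). The median effect over the 8 genes in HCT116 was 0.23 for PJ-34, 0.21 for 5-aza-dC and 0.14 for TSA, against 0.01, 0.02 and -0.03 over the 14596 genes tested. The 8 include CYP1A1, which passed the filter only through its PJ-34 arrays, and none of them passed the test for any drug. These medians are a description, and their difference from all genes was not tested.

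Of the 8 genes, 6 were higher in HCT116 by limma's test over 16 arrays and none was lower. Of all 42119 probe sets 44.3% passed that comparison in either direction, 8977 higher in HCT116 and 9687 lower. In RKO AHR and CYP1B1 reached 100 in 3 arrays each and CYP1A1 in 1, so these 3 passed the filter only because they were high in HCT116, and their calls are a description. The median difference of the 8 genes was 1.38 on the log2 scale, against 0.05 over 16626 genes. ALDH3A1, with 1 RKO array at 100 or more, also passed the filter only through HCT116. The median includes it and the 3 genes above and is likewise a description. AHR had a median signal of 1625 in HCT116 and 89.3 in RKO, and its lowest HCT116 array was 9.84 times its highest RKO array. NQO1 had medians of 34276 and 3770, AHRR of 1089 and 276, and CYP1B1 of 277 and 82.9. In these 4 genes all 8 HCT116 arrays were above all 8 RKO arrays, which held for 9.85% of probe sets.

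With signals under 50 set to 50, the difference was 4.30 for AHR (SE 0.21, adjusted p = 3.6e-12), 3.27 for NQO1 (SE 0.08, adjusted p = 1.12e-16), 2.18 for AHRR (SE 0.16, adjusted p = 1.25e-09) and 1.80 for CYP1B1 (SE 0.29, adjusted p = 4.75e-05). CYP1A1 followed with 0.97 (SE 0.29, adjusted p = 0.0109), with arrays of the lines overlapping, and ARNT with 0.57 (SE 0.16, adjusted p = 0.00625). TIPARP (0.17, 95% interval 0.00 to 0.34, adjusted p = 0.0958) and ALDH3A1 (0.64, -0.14 to 1.42, adjusted p = 0.18) did not pass. The other NQO1 probe sets (1.88 and 1.82) passed in the same direction, whereas of the other ARNT probe sets 230619_at did (1.22) and 4 did not (-0.26 to 0.28). The CYP1B1 probe sets 202435_s_at and 202437_s_at were also higher in HCT116 (1.26 and 1.65). No RKO array reached 100 on them, so they passed the filter only through HCT116 and are a description. The remaining CYP1B1 probe set, 202434_s_at, read under 50 on every array of both lines and was not tested. All 6 calls held in the 16 fits that left out 1 array each and without the disputed arrays, where AHR was at 4.67 and AHRR at 1.99. These fits kept the same filter, so for AHR, CYP1B1 and CYP1A1 the calls and their adjusted p remain a description. The summed signal of the 9 colon epithelium markers was 169835 to 258783 in HCT116 and 19389 to 21363 in RKO. Bright genes such as KRT18 (medians 102628.5 and 15980) weigh most in it. The medians were close for CDX2 (117 and 111) and LGALS4 (108 and 100). Median sums of the hepatocyte (1110 and 618), fibroblast (1983 and 438) and blood genes (890 and 525) were also higher in HCT116. The shift was thus not particular to colon epithelium, and the part of these markers in the difference was not tested.

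**Figure D5:**
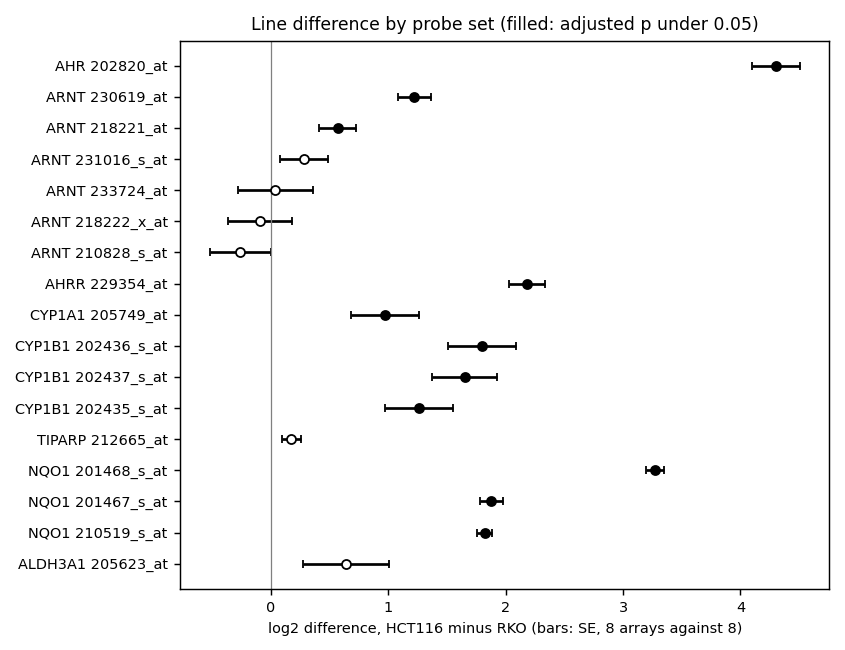
Log2 difference between the 8 HCT116 and the 8 RKO arrays for each probe set that passed the filter over both lines, with bars of 1 SE. Filled points have an adjusted p under 0.05. AHR lies at 4.30 and the NQO1 probe sets at 1.82 to 3.27, while the 6 ARNT probe sets spread from -0.26 to 1.22.

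Genes around the receptor were read from lists of known members. Of 9 tested receptor partners, chaperones and coactivators, none passed in a drug effect in either line. The smallest p belonged to HSP90AB1, a chaperone that holds the receptor in the cytoplasm. Its TSA effect in RKO was 0.20 with all arrays (SE 0.06, adjusted p = 0.221). Between the lines 4 of these 9 were higher and 4 lower in HCT116, against 44.3% of all probe sets in either direction. Among other targets of the receptor, 2 of 13 fell with TSA in HCT116 and none rose. Of all probe sets 8.99% passed that test in either direction, and the 1 to 3 genes called in each of the lists here are too few to set apart from it. STC2, a secreted stress glycoprotein, fell by 0.98 (SE 0.22, adjusted p = 0.0135), from 814 to 2503 in the arrays without TSA to 557 to 1015 in those with it. CCNG2, a cyclin of growth arrest, fell by 0.76 (SE 0.13, adjusted p = 0.0041), from 6511 to 7677 to 3231 to 5052. The median TSA effect over the 13 was -0.14. No other target passed for PJ-34 or 5-aza-dC, where the medians were -0.07 and -0.07.

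Of 6 other genes whose proteins pair with ARNT, 1 fell with TSA in HCT116. This was EPAS1, which encodes a hypoxia factor, by 0.53 (SE 0.11, adjusted p = 0.0107), with 2826 to 4367 in the arrays with TSA and 4272 to 7127 in those without. None of the 5 tested genes of the kynurenine pathway, which makes tryptophan metabolites that bind the receptor, passed for any drug in HCT116. KYAT1 came closest with a TSA effect of -0.58 (SE 0.20, adjusted p = 0.0854). In the NRF2 battery, which shares NQO1 with the receptor, 2 of 14 genes rose and 1 fell with TSA in HCT116. GCLM, of glutathione synthesis, rose by 0.97 (SE 0.13, adjusted p = 0.00079), from 2790 to 3304 without TSA to 5445 to 7386 with it, and HMOX1, the haem oxygenase, rose by 0.83 (SE 0.18, adjusted p = 0.0125), from 780 to 1127 without TSA to 1318 to 1939 with it. SLC7A11, the cystine carrier, fell by 2.08 (SE 0.33, adjusted p = 0.00242). It read 15793 in the control, 11403 with PJ-34, 5871 with 5-aza-dC and 1825 with PJ-34/5-aza-dC, against 1174 to 1845 in the arrays with TSA, so that the groups overlapped. These genes and NQO1 thus did not share 1 direction. No gene of these lists passed for PJ-34 or 5-aza-dC in HCT116 or, with all arrays, for any drug in RKO. In that RKO fit 0, 0 and 2 of all probe sets passed for PJ-34, 5-aza-dC and TSA, so it says little about the lists. Without the disputed arrays 610 probe sets passed for 5-aza-dC in RKO, and the lists were not tested there.

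Between the lines, 7 of 14 other receptor targets were higher in HCT116 and none lower, as were 4 of 7 ARNT partners. Of all 42119 probe sets 44.3% passed in either direction, 8977 of them higher in HCT116 and 9687 lower. The lists are small and were not tested against these shares, which count all probe sets, while a list counts the representing probe set of each gene. Of 14 NRF2 genes 8 were higher and 3 lower, and of 6 kynurenine genes 2 were lower and none higher. The receptor target with the largest difference was EREG, a growth factor of the epidermal growth factor family, with signals of 9712 to 16674 in HCT116 and 4.1 to 124 in RKO (7.73, SE 0.15, adjusted p = 9.85e-18). With an RKO median of 51.8, EREG passed the filter only because it was high in HCT116. It was also chosen after its values were seen, so its difference is a description.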

How the data were processed

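Per the labels, the authors put RNA of each condition on 1 Affymetrix U133 Plus 2.0 array and made a linear signal intensity for every probe set with GCOS, whose version is not given in the sources used here. All arrays were brought to a common trimmed mean, which hides a change shared by most genes. Groups came from the deposited labels. The 62 control probe sets were left out. The platform annotation gives 1 symbol to 41097 probe sets, several to 1801 and none to 11777. A floor of 50 came before log2, so folds of dim genes are understated. Where 4 or more arrays (of a line, or of both in models of both) reached 100, limma 3.58.1 (R 4.3.3) fitted additive drug terms within a line, or drug, line and their differences, with interactions in a fit of their own and a variance trend, with Benjamini-Hochberg adjustment over all probe sets of a comparison. The steps were tested on simulated data. Alternatives were floors of 20 and 100, no filter, quantile normalization, no trend, the mean of a gene's probe sets, 1 fit of all arrays, and fits without single arrays or without the disputed ones. Genes named are the 8 members, per further list up to 4 genes called in a drug effect or else the smallest p, and the 3 genes most like each member, while EREG was chosen after its values were seen. Members and lists were chosen with earlier results of these data known.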

Additional observations from a re-analysis of the deposited data

Results flagged for a closer look

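The TSA effect on NQO1 201468_s_at differed between the lines by a test of the difference itself, at -0.7613 on the log2 scale (HCT116 minus RKO, SE 0.15, limma adjusted p = 0.0373), from -0.31 in HCT116 and 0.45 in RKO. When 1 array was left out, the call held in 5 of 16 fits, those without the TSA, PJ-34/5-aza-dC or 5-aza-dC/TSA array of HCT116 or without the control or PJ-34 array of RKO, and the value stayed between -0.85 and -0.65.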

How the results depend on the processing

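No paired analysis was possible because the replicate number is 1 in every group and ties no arrays together. The comparisons of arrays that differ in 1 drug alone come from the design, and the additive drug terms rest on them. Of 5086 values of member probe sets under alternatives, 5010 stayed on their side of the threshold, 56 lost a call, 20 gained one and 0 were called in the opposite direction. Counts of member genes called changed as follows. The TSA effect in HCT116 had 0, and 1 (NQO1) with quantile normalization and with the mean of all probe sets of a gene, and 0 to 2 when 1 array was left out (NQO1 and TIPARP without the TSA array). TSA minus PJ-34 effect in HCT116 had 0, and 1 (NQO1) with quantile normalization. TSA minus 5-aza-dC effect in HCT116 had 1 (AHRR), 0 with no filter, quantile normalization, no trend or all 16 arrays in 1 fit, 2 (AHRR and NQO1) with the mean of probe sets, and 0 to 1 with 1 array left out. The 5-aza-dC effect in RKO had 0, 1 (ARNT) without the disputed arrays, and 0 to 1 with 1 array left out. The TSA effect, HCT116 minus RKO, had 1 (NQO1), 0 with no filter, no trend, the mean of probe sets or without the disputed arrays, and 0 to 1 with 1 array left out. HCT116 minus RKO had 6, and 6 to 7 with 1 array left out (TIPARP without the HCT116 TSA, the RKO control or the RKO PJ-34/5-aza-dC array, adjusted p = 0.0396, 0.0363 and 0.0356, and ALDH3A1 without the HCT116 5-aza-dC/TSA array, 0.0113). The cause was not tested. The calls for the other NQO1 probe sets, given with their values above, were lost with no filter and with no trend. With the mean of its probe sets ARNT no longer differed between the lines by the test (0.29, adjusted p = 0.075). CYP1A1 left the filter in HCT116 whenever an array with PJ-34 was left out, so its PJ-34 effect could be refitted in 4 of 8 fits, at 2.01 to 2.39. Signals near the floor limit AHR, CYP1A1, CYP1B1 and ALDH3A1 in RKO.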

Other observations

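The genes whose signals followed each member most closely were found by the Pearson correlation of log2 signals, centred within each line, over 16 arrays and 16625 other genes. The arrays share drugs and scaling, and such values are given as a description. For CYP1A1 they were TMEM72-AS1 (0.78), FBXL18 (0.77) and TRIM68 (0.77), for AHR LOC101927609 (0.79), PIGZ (0.77) and ZNF333 (0.76), and for AHRR SYPL2 (0.83), LMO2 (0.82) and MNX1 (0.78). For ARNT they were CRKL (0.89), TAF5 (0.86) and GTF3C4 (0.85), and for TIPARP HNRNPA3 (0.87), GTF3C4 (0.85) and PCLAF (0.84). For NQO1 they were RPL18 (0.82), PCGF3-AS1 (0.82) and FCGBP (0.80), for CYP1B1 LINC02837 (0.81), SH2D3A (0.79) and NEGR1 (0.77), and for ALDH3A1 C1orf94 (0.91), SPNS2 (0.82) and LINC01416 (0.78). No gene was named here for more than 1 member apart from GTF3C4.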
